A study of Mus musculus with 16 samples.

Results

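The effect of RAM siRNA on the transcripts of the cytoplasmic extract was described in mouse embryonic stem cells (ESCs), as the change between 4 input libraries of RAM siRNA cells and 4 input libraries of control cells. These 8 libraries were the input libraries of a series of 16. The other 8 came from polysomes, the mRNAs loaded with several ribosomes. Of 46983 genes listed, the 13911 with at least 1 CPM (counts relative to the library total, scaled by the TMM method) in at least 4 of the 8 input libraries were tested.

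All libraries came from 46C ESCs, a line from strain 129Ola mice that carries GFP at the Sox1 locus, grown on gelatin-coated dishes with LIF. Control cells received a non-targeting siRNA and RAM siRNA cells an siRNA against RAM, at 70 pM for 48 hr per the labels. The study's methods give another siRNA amount and reagent for transfections in general. The study's supplement names a single RAM siRNA for these transfections, which were made on 4 separate occasions. An siRNA is a short double-stranded RNA that directs the cleavage of transcripts it pairs with. Effects of RAM loss and effects of either siRNA on other transcripts cannot be told apart here. All cells were treated with cycloheximide at 100 µg/ml for 10 min before lysis, 10% of each extract was kept as input, and ribosomal RNA was removed before sequencing.

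RAM, encoded by Ramac, is the activating subunit of the cap methyltransferase RNMT. The enzyme adds a methyl group to the guanosine cap of nascent mRNAs, and the methylated cap is bound by the nuclear cap binding complex and by the initiation factor eIF4E, so that it takes part in splicing, export, stability and translation. ESCs grown in LIF hold their identity through a network of transcription factors, divide fast with a short G1 phase, and express many germline genes at a low level.

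Input libraries held between 16697205 and 19140331 counts, and each took its largest share of counts (3.29% to 3.99%) from the mitochondrial rRNA gene mt-Rnr2. The ESC markers set for the label check were all measured and summed to between 5227 and 5664 CPM in control libraries and between 4397 and 4927 CPM in RAM siRNA libraries. Of these 10 markers, 9 fell and none rose, where 18.6% of all genes tested fell and 19.1% rose. In each of the wider lists of naive and general pluripotency described below, 9 of 20 genes fell, and 1 and 2 rose. Neural markers summed to between 73.6 and 88.3 CPM in control and between 78.9 and 95.0 CPM in RAM siRNA libraries, with 1 of 4 falling and 1 rising. Markers of primitive endoderm summed to at most 14.8 CPM, of trophoblast to at most 17.1 CPM, of mesoderm to at most 4.90 CPM and of fibroblasts to at most 11.6 CPM in any library. No marker of these sets was at 0 in all libraries, and the part of such cells in the results was not tested. RNA from fewer cells of a kind and less RNA per cell cannot be told apart in bulk libraries.

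Ramac (ENSMUSG00000038646, GRCm38 chromosome 7, 81762925 to 81769491, plus strand) had 201, 202, 197 and 206 counts in control libraries 1 to 4 and 57, 46, 58 and 56 counts in RAM siRNA libraries 1 to 4. The groups did not overlap (p = 0.0286 in an exact permutation test, two-sided, which can go no lower with 4 libraries a group), and the mean of RAM siRNA libraries was 27.8% of the control mean. Rnmt, the catalytic subunit, rose in the same cells. It was at 216, 252, 201 and 217 CPM in control libraries and at 292, 327, 288 and 233 CPM in RAM siRNA libraries, a log2 fold change of 0.36 (SE, the standard error of the fit, 0.05, adjusted p = 1.52e-05). Control library 2 lay above RAM siRNA library 4, and each RAM siRNA library lay above the control library of its own number. Of the 19 genes of cap formation and cap binding tested, Ramac included, 7 fell, 3 rose and 9 did not pass the threshold, with a median log2 fold change of -0.08. The largest falls after Ramac were in Dcps, the scavenger decapping enzyme (-0.43), Cmtr2, a ribose methyltransferase of the cap (-0.39), and Eif4e2, a cap binding protein (-0.35). Ncbp2, the cap binding subunit of the nuclear complex, rose by 0.16 on the log2 scale (adjusted p = 0.016). Rngtt, which adds the guanosine, had a log2 fold change of -0.04 (SE 0.06, adjusted p = 0.57).

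Across all genes tested, 2581 fell (18.6%) and 2655 rose (19.1%), at an adjusted p under 0.05 from edgeR's quasi-likelihood test with the replicate number as a block. A gene past this threshold is referred to as called. Without the block, 792 genes fell (5.69%) and 916 rose (6.58%). Most changes were small. The median absolute log2 fold change of called genes was 0.29, and 264 genes fell and 573 rose by at least 1.5-fold, of which 53 and 118 changed by at least 2-fold. The 4 RAM siRNA libraries lay below all 4 control libraries in 1206 genes (8.67%) and above them in 1237 (8.89%), and 4829 of the called genes changed in the same direction in all 4 pairs of same-numbered libraries.

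**Figure D1:**
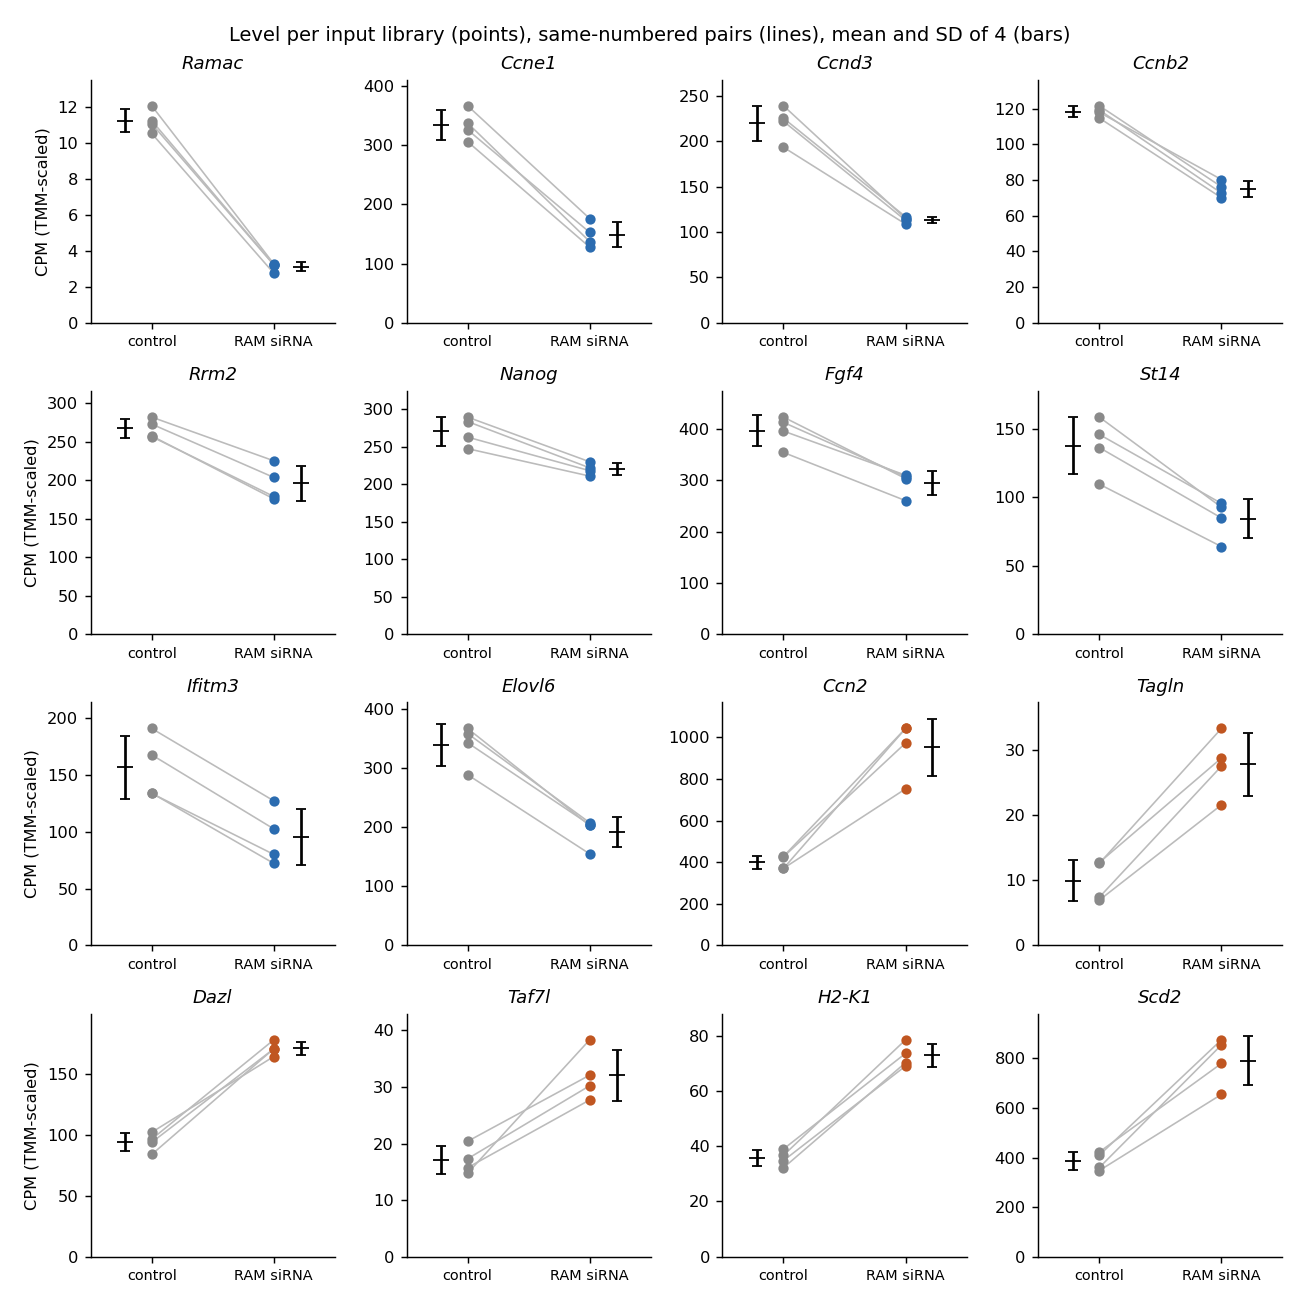
Level of 16 genes in each input library. The vertical axes give TMM-scaled CPM and start at 0, each point is a library, grey lines join control and RAM siRNA libraries of the same number, and black bars give the mean and SD of 4 libraries. Ramac and the 9 genes after it, from Ccne1 to Elovl6, lie lower in RAM siRNA libraries and Ccn2, Tagln, Dazl, Taf7l, H2-K1 and Scd2 lie higher, in every pair.

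Genes of different functions stood among the 15 largest falls (called genes of at least 10 CPM with all pairs in 1 direction, Ramac left out). Grin1, a subunit of NMDA glutamate receptors, was at 17.2, 16.4, 14.0 and 13.8 CPM in control libraries and at 6.61, 4.79, 6.80 and 3.92 CPM in RAM siRNA libraries, a log2 fold change of -1.47 (SE 0.11, adjusted p = 2.05e-09). Ccne1, the G1/S cyclin E1 (chromosome 7, 38097984 to 38107534), was the most abundant of the 15. It had 306, 338, 367 and 326 CPM in control and 128, 137, 176 and 153 CPM in RAM siRNA libraries, a log2 fold change of -1.18 (SE 0.05, adjusted p = 2.62e-13). Ccnd3, cyclin D3, fell with it, from 193 to 239 CPM down to 109 to 117 CPM, a log2 fold change of -0.95.

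Mitochondrial enzymes and carriers formed a second group of the 15. Coq3, a methyltransferase of coenzyme Q synthesis, fell by 1.16 on the log2 scale, Coa5, an assembly factor of cytochrome c oxidase, by 0.97, and Mpc1, a subunit of the mitochondrial pyruvate carrier, by 0.96. Glycosylation was represented by Alg14, which helps to build the lipid-linked sugar of N-glycans (-1.04), and by Slc35a3, a Golgi carrier of UDP-N-acetylglucosamine (-0.97). The others were the uncharacterized 1810037I17Rik (-1.43), the small GTPase Rab15 (-1.35), the leucine-rich repeat gene Lrrc34 (-1.30), the secreted protein Nell2 (-1.15), the DNA damage clamp subunit Hus1 (-1.15), the G protein Gna14 (-1.09) and Fam84b (-1.01). In all 15 genes the groups did not overlap.

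The 15 largest rises held genes of the contractile cytoskeleton, of lipid synthesis and of the cell surface. Tagln, the actin binding protein transgelin, was at 12.7, 7.40, 6.96 and 12.6 CPM in control libraries and at 28.7, 27.5, 21.6 and 33.3 CPM in RAM siRNA libraries, a log2 fold change of 1.5 (SE 0.09, adjusted p = 7.64e-11). Ccn2, a secreted matrix protein and a standard readout of YAP activity, rose from 370 to 428 CPM to between 753 and 1043 CPM, a log2 fold change of 1.25. Myl9, the regulatory light chain of myosin, rose by 1.08 on the log2 scale, and was the only member of the 15 whose groups overlapped, since RAM siRNA library 3 (12.7 CPM) lay below control libraries 1 and 4 (14.0 and 14.4 CPM). The groups of the other 14 were apart.

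Lipid enzymes among the 15 were Scd2, a desaturase that makes monounsaturated fatty acids (1.03), Elovl2, an elongase of polyunsaturated fatty acids (1.00), and Dgat2, which completes triglycerides (0.99). Surface proteins were the MHC class I heavy chain H2-K1 (1.03), the zinc importer Slc39a1 (0.99) and the acid-sensing channel Asic1 (0.96). The calcium binding ER protein Rcn3 (1.00), Pramel7 (1.00), the N-acetylaspartate synthase Nat8l (0.99), the extracellular protein Coch (0.95), AU022751 (0.92) and the testis TFIID subunit Taf7l (0.91) completed the set.

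A 7-letter word in the 3′ UTR went with the falls, and another with the rises. The longest 3′ UTR of each gene (GENCODE M21, coding transcripts) was searched on the transcript strand, for 12434 of the 13911 genes. Of 15753 words found in at least 100 of these genes, ACTATCA had the lowest mean log2 fold change of its carriers. TGCTCAA was in place 7 from the top, with a mean of 0.10 over 1089 genes. The word in place 1, GCGCCCG, had a mean of 0.12 over 114 genes, and the words above TGCTCAA were not described further. ACTATCA and TGCTCAA were picked from these libraries, so what follows is a description. ACTATCA was in 705 genes (5.67%). Of these, 44.1% fell and 9.50% rose, with a median log2 fold change of -0.13, against 18.6% and 20.1% and a median of 0.00 in the 11729 genes without it. Of the 51 genes with 2 or more copies, 31 fell and 4 rose, with a median of -0.26. TGCTCAA was in 1089 genes (8.76%), of which 13.2% fell and 29.8% rose, with a median of 0.06, against 20.7% and 18.5% and a median of -0.01 in the others.

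The sites below are the first copy of each word in genes named by the rule, with the word in capitals, to show its letters in their surroundings. They are given 5′ to 3′ on the transcript strand, with GRCm38 coordinates.
1810037I17Rik (chr3:122925606-122925634, plus strand): ctcactaaagtACTATCAtatgtttaaaa
Coa5 (chr1:37417129-37417157, minus strand): actggagaattACTATCAaaatttgaaat
Syap1 (chrX:162857515-162857543, minus strand): ttaaagtacttACTATCAgaaagtaatat
Elovl6 (chr3:129635310-129635338, plus strand): ggctagcagaaACTATCAcctatcttcct
Esrp1 (chr4:11333428-11333456, minus strand): gtgatcctgaaACTATCAgacaagagaac
Scd2 (chr19:44305992-44306020, plus strand): tggggctgtttTGCTCAAgtgcccgtagc
Dgat2 (chr7:99154321-99154349, minus strand): ctagtgtgtccTGCTCAAggtggaggctg

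Elovl6 held 3 copies of ACTATCA and also held TGCTCAA, and Syap1 held 2 copies of ACTATCA. Among genes with a 3′ UTR that fell by at least 1.5-fold, 46 of 239 (19.2%) held ACTATCA and 16 (6.69%) held TGCTCAA. Among those that rose by at least 1.5-fold, 13 of 514 (2.53%) held ACTATCA and 74 (14.4%) held TGCTCAA. Most changed genes thus held neither word. Genes with ACTATCA had longer 3′ UTRs than the others (medians of 2982 and 1099 bases), as did genes with TGCTCAA (2587 and 1068 bases). None of the 1679 mature mouse miRNAs of RefSeq (GRCm38.p6) has a seed, bases 2 to 8, that pairs with either word along its whole length. Whether the words pair with either siRNA was not tested, since the siRNA sequences were not used here. Without the 1676 genes that hold a word, 2161 of 12235 genes fell and 2281 rose.

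**Figure D2:**
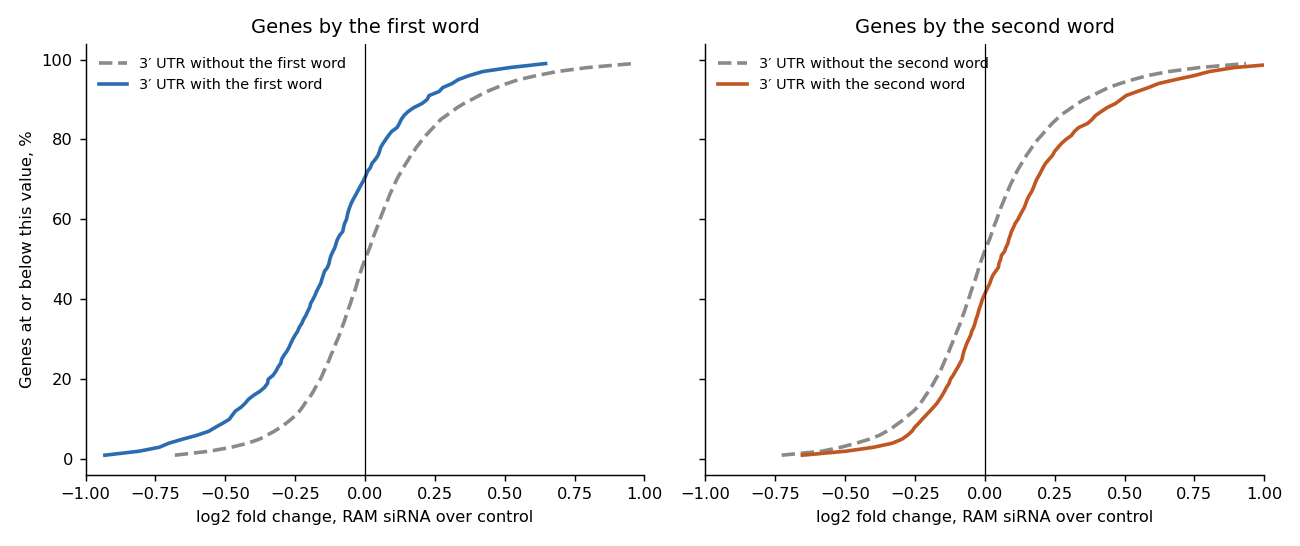
Cumulative distribution of the log2 fold change of genes in input libraries (horizontal axis) against the share of genes at or below each value (vertical axis, %). Left, genes with (705) and without the first word, ACTATCA, in the 3′ UTR, and right, genes with (1089) and without the second word, TGCTCAA. The curve of carriers lies left of the others for the first word and right of them for the second.

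The functions behind the smaller changes were described with 58 lists of textbook genes, which hold 2383 tested genes. The lists were written with earlier results of these data known, so their shares are a description. Of these lists, 35 had a median log2 fold change below 0 and 23 above 0, where the median of all genes tested was 0.00. LIF signalling (-0.17), epithelial junctions (-0.15) and histones (-0.15) were among the lowest. Germline genes (0.36), MHC class I (0.30) and the mitochondrial genome (0.23) were among the highest. A share of members called is to be read against 18.6% falling and 19.1% rising among all genes. Falls were more frequent at higher levels. Of the 9355 genes of at least 10 CPM, 2159 fell and 1776 rose. All tested members of some lists were at that level, as in DNA replication (47) and mitosis (37). Where leaving out a replicate moved a count of more than 3 genes by over 1.5 times, the count without it is given. Counts of 3 or fewer moved by at most 2. Fewer genes were called without the block, where 5.69% of all genes fell. Falls then numbered 10 of 44 Rab GTPases, 8 of 31 epithelial junction genes, 7 of 37 mitosis genes and 6 of 47 DNA replication genes. They numbered 2 of 20 general pluripotency genes and 2 of 37 ATF4 genes. Only 1 gene fell in each of the histone (56 tested), proteasome (37), mRNA decay (45) and tRNA synthetase (23) lists.

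**Figure D3:**
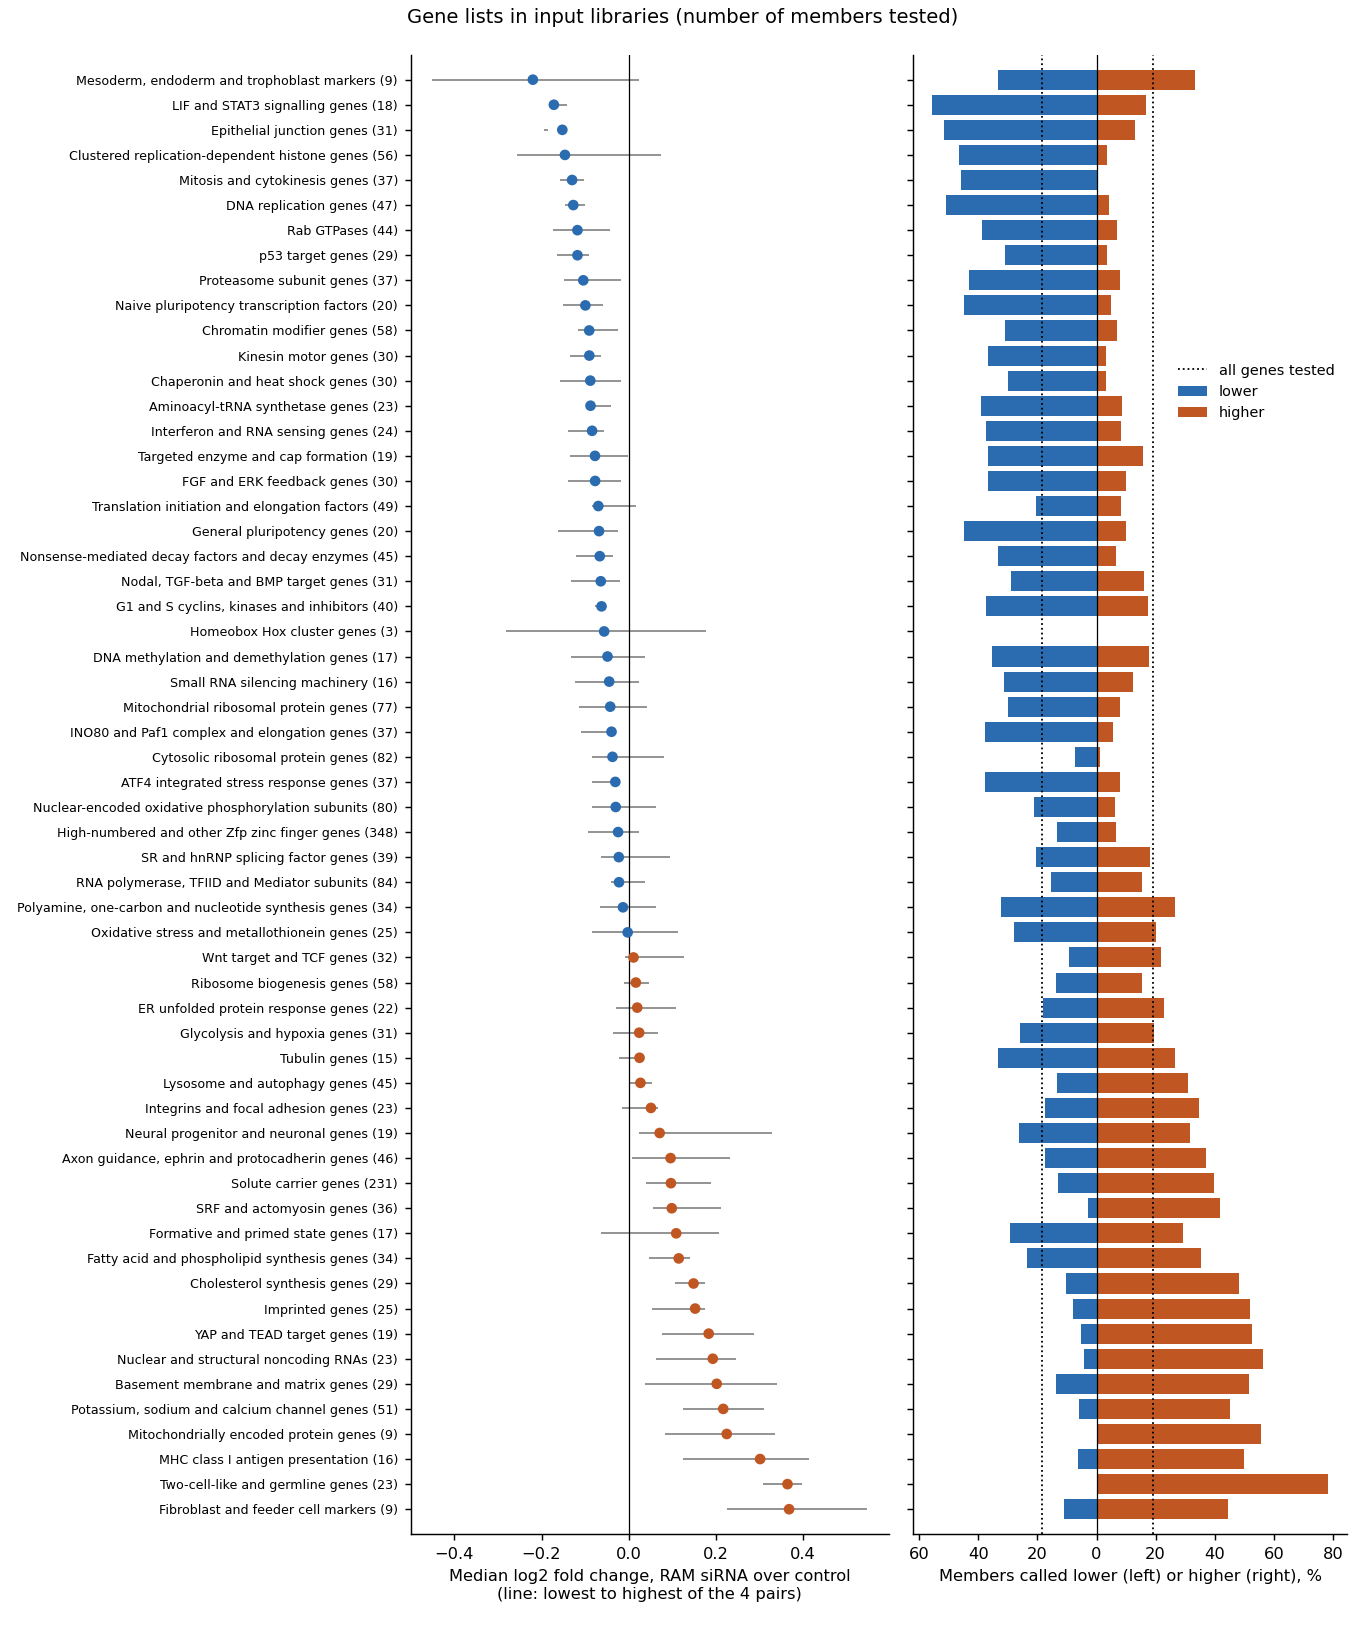
The 58 gene lists, ordered by median, with the number of members tested in parentheses. Left, median log2 fold change of the fitted values (points) and the lowest to highest of the medians in the 4 pairs of libraries (lines), which can lie to one side of the point since they come from single pairs. Right, share of members that fell (left of 0) and rose (right of 0), with dotted lines at the shares of all genes tested. Germline genes have the largest share that rose (78.3%) and LIF and STAT3 genes the largest share that fell (55.6%).

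Genes of the cell cycle fell more often than they rose. Of 40 cyclins, kinases and inhibitors of G1 and S phase, 15 fell and 7 rose (median -0.06). Besides Ccne1 and Ccnd3, E2f8, a repressor of the E2F family, fell from 16.1 to 18.8 CPM down to 9.15 to 9.95 CPM (-0.83). Ccna2, cyclin A2, fell by 0.30 on the log2 scale, Cdkn1b, the inhibitor p27, by 0.18, and E2f1 by 0.17. D-type cyclins moved apart, since Ccnd1, cyclin D1, rose from 12.2, 10.8, 9.47 and 17.9 CPM to 19.1, 18.7, 16.4 and 27.7 CPM (0.71, adjusted p = 2.09e-07). Cdkn1a, the inhibitor p21, rose by 0.34 and E2f6, a repressor of germline and cell cycle genes, by 0.24. Cdk2 (-0.07) and Myc (0.09) did not pass the threshold. This list held 9 genes with a word in the 3′ UTR, and 13 of the 31 others fell.

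DNA replication genes fell more often. Of 47 tested, 24 fell and 2 rose, with a median of -0.13 and medians between -0.15 and -0.10 in the 4 pairs. Rrm2 and Rrm1, the subunits of ribonucleotide reductase, fell by 0.45 and 0.40 on the log2 scale. Rrm2 was at 258, 257, 273 and 282 CPM in control libraries and at 176, 179, 204 and 225 CPM in RAM siRNA libraries, which do not overlap. Rfc5, a subunit of the clamp loader, fell by 0.43, while Rfc1 and Rfc2 of the same complex rose by 0.20 and 0.19. Uhrf1, which links replication to DNA methylation, fell by 0.38, the sliding clamp Pcna by 0.25 and the licensing factor Cdt1 by 0.12, and the helicase subunit Mcm2 had -0.10 (adjusted p = 0.0816). Without replicate 1, 15 of the 47 fell, and without replicate 2, 13.

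Replication-dependent histone genes, whose transcripts peak in S phase, held 56 tested genes, of which 26 fell and 2 rose (median -0.15). The largest falls of at least 10 CPM were in Hist2h2ab (-0.38), Hist1h2af (-0.38) and Hist1h3d (-0.36). The pairs differed here. The median was -0.26, -0.21 and -0.19 in pairs 1 to 3 and 0.07 in pair 4, and 15 genes fell without replicate 1 against 37 without replicate 4. Histone genes of a cluster are nearly identical in sequence, so their reads may be split or lost between copies.

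Genes of mitosis and cytokinesis had 17 of 37 members that fell and none that rose (median -0.13). None rose with limma-voom or DESeq2 or at an unadjusted p under 0.05 either (0 of 37, edgeR), and Plk1 had a log2 fold change of 0.08 (adjusted p = 0.25). Ccnb2, cyclin B2, was at 119, 115, 118 and 122 CPM in control and at 72.7, 70.1, 80.3 and 76.3 CPM in RAM siRNA libraries, a log2 fold change of -0.66 (SE 0.05, adjusted p = 3.99e-10). Cep55, a scaffold of abscission, fell by 0.43, Pttg1, the inhibitor of separase, by 0.36, and Ccnb1 by 0.31. Cdc20 (-0.03), Aurka (-0.09) and Mki67 (-0.17) did not pass, and Mki67 ranged from 275 to 591 CPM within the control group. Of 30 kinesin motor genes, 11 fell and 1 rose (median -0.09), with 5 falling without replicate 1 and 7 without replicate 2.

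**Figure D4:**
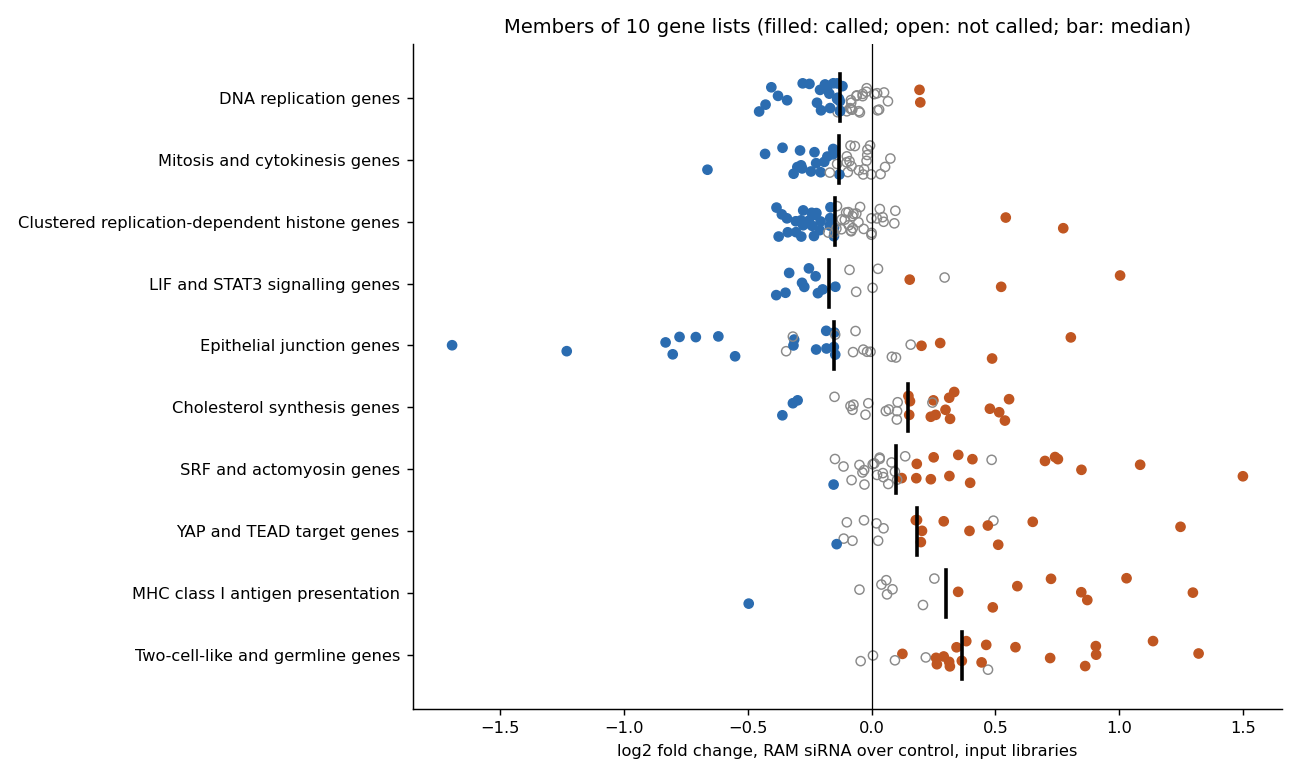
Log2 fold change of each tested member (points) of 10 gene lists, RAM siRNA over control in input libraries. Filled points passed the threshold, open points did not, and black bars are the medians, from -0.17 for LIF and STAT3 genes to 0.36 for germline genes. Most members of the cell division lists lie close together below 0, 2 histone genes lie well above it, and epithelial, actomyosin and MHC genes spread over a wider range.

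Pluripotency genes fell more often than they rose, by small amounts. Of 20 transcription factors of the naive state, 9 fell and 1 rose (median -0.10), and of 20 genes of general pluripotency 9 fell and 2 rose (median -0.07). Among genes without either word in the 3′ UTR, 6 of 17 naive and 8 of 16 general genes fell. Nanog was at 284, 263, 248 and 290 CPM in control and at 222, 218, 211 and 230 CPM in RAM siRNA libraries, without overlap, a log2 fold change of -0.30 (SE 0.04, adjusted p = 1.06e-05). Prdm14, which guards the naive state, fell by 0.52 on the log2 scale and Tbx3 by 0.34. Klf4 and Zfp42 fell by 0.15 and 0.12, and Zfp42 lost the call without replicate 1, 2 or 3. Pou5f1, which encodes Oct4, fell by 0.19 with overlapping groups, and Sox2 had -0.10 (adjusted p = 0.0725).

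Among the other pluripotency genes, Fgf4, the growth factor that drives ERK signalling in ESCs, fell from between 354 and 423 CPM to between 260 and 310 CPM (-0.43). Dppa5a fell by 0.37 and Tdh, the threonine dehydrogenase of mouse ESCs, by 0.32. Lefty1, an inhibitor of Nodal, rose by 0.87. Its libraries were uneven, at 5.73, 5.21, 13.5 and 14.5 CPM in control and 17.2, 7.31, 32.4 and 15.3 CPM in RAM siRNA libraries, and DESeq2 did not call it.

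The LIF pathway had the largest share of falling genes, 10 of 18, with 3 that rose (median -0.17, between -0.18 and -0.14 in the 4 pairs). Of these 18 genes, 4 held a word in the 3′ UTR. Of the 14 others 7 fell and 2 rose (median -0.12), a share that was no longer the largest (14 of 27 for epithelial junction genes). Lifr, the receptor of LIF, was at 386, 360, 429 and 339 CPM in control and at 324, 283, 313 and 242 CPM in RAM siRNA libraries, a log2 fold change of -0.38. Its partner Il6st fell by 0.23, the feedback inhibitor Socs3 by 0.33 and Bcl3 by 0.35, while Stat3 itself had -0.06 (adjusted p = 0.29). Pramel7 (1.00), the kinase Jak2 (0.52) and the kinase Pim1 (0.15) rose. Of 30 genes of FGF and ERK signalling, 11 fell and 3 rose (median -0.08), and of the 25 without either word 8 fell and 2 rose.

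Lists of other fates differed in direction. Of 30 neural genes listed, 19 were tested, of which 5 fell and 6 rose (median 0.07), with 3 rising without replicate 2. Pax6 fell by 0.51 on the log2 scale (10.8 to 14.7 CPM in control, 7.29 to 12.0 CPM in RAM siRNA libraries), as did Grin1 and the adhesion molecule Ncam1 (-0.45). The intermediate filament genes Ina (0.89), Nes (0.42) and Nefl (0.31) rose. Sox1 (0.07, adjusted p = 0.669) and Tubb3 (0.03, adjusted p = 0.749) did not pass. Of 24 markers of mesoderm, endoderm and trophoblast only 9 were tested, of which 3 fell and 3 rose. Of 17 markers of fibroblasts and feeder cells 9 were tested, of which 4 rose and 1 fell (median 0.37, between 0.23 and 0.55 in the 4 pairs). Of 39 Hox genes 3 were tested and none was called, by edgeR, DESeq2 or limma-voom or at an unadjusted p under 0.05 (0 of 3).

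Epithelial junction genes fell more often than they rose. Of 31 tested, 16 fell and 4 rose, with a median of -0.15. The surface protease St14, matriptase, fell by 0.71, and its inhibitor Spint1 by 0.55, from between 452 and 673 CPM to between 299 and 443 CPM. Esrp1, a splicing regulator of epithelial cells, had the largest fall of the list (-1.69), at 5.65 to 7.50 CPM in control and 1.56 to 2.63 CPM in RAM siRNA libraries. Epcam fell by 0.22. Cdh1, E-cadherin (-0.03, adjusted p = 0.606), and Cldn6 (-0.07) did not pass. Dsc2, a desmosomal cadherin (0.49), Ocln, occludin (0.28), and Pkp2 (0.20) rose. Under 10 CPM, and chosen after their values were seen, Cldn7 fell by 1.23 on the log2 scale and Cgn, cingulin, rose by 0.81. Esrp1 holds ACTATCA, and of the 27 members without either word 14 fell.

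Contractile, YAP target and matrix genes rose more often than they fell. Of 36 SRF and actomyosin genes, 15 rose and 1 fell (median 0.10). Besides Tagln and Myl9, the tropomyosin Tpm1 rose from 111, 88.3, 100 and 117 CPM to 189, 173, 184 and 200 CPM (0.85, standard error 0.05, adjusted p = 1.03e-11). The abundant Actb had 0.03 (adjusted p = 0.632), Myh9 rose by 0.12, and Pfn1, profilin, fell by 0.15. Of 19 YAP and TEAD targets, 10 rose and 1 fell (median 0.18), with 7 rising without replicate 1 or 2. Ccn1 rose from between 341 and 390 CPM to between 452 and 562 CPM (0.51) and Igfbp3 by 0.65, and Wwc1, an upstream regulator of the pathway, fell by 0.14. Acta2 and Ankrd1 had at most 31 and 4 counts in any input library and were not tested.

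Of 29 genes of basement membrane and matrix, 15 rose and 4 fell (median 0.20). The laminin chains split. Lamc1 rose by 0.40, while Lama1 and Lamb1 fell by 0.38 and 0.47 on the log2 scale, and Lama1 was at 912, 942, 942 and 697 CPM in control and at 756, 781, 706 and 476 CPM in RAM siRNA libraries. The collagen IV chains Col4a1 (0.27) and Col4a2 (0.16, and 0.09 without replicate 1) rose. Fbn2, fibrillin 2, rose by 0.81 and the protease inhibitor Timp3 by 0.73, and Timp1 fell by 0.59. Of 23 integrin and focal adhesion genes, 8 rose and 4 fell (median 0.05).

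Germline and 2-cell-like genes had the most uniform rise. Of 26 listed, 23 were tested, of which 18 rose and none fell, with a median of 0.36 and between 0.31 and 0.40 in the 4 pairs. edgeR without the block called 10 to rise. None fell with DESeq2 or limma-voom or at an unadjusted p under 0.05 (0 of 23). Of the 15 members of at least 10 CPM, 12 rose, and no member passed the filter through RAM siRNA libraries alone. Dazl, an RNA binding protein of germ cells, was at 93.8, 96.5, 83.9 and 102 CPM in control and at 170, 178, 171 and 164 CPM in RAM siRNA libraries, a log2 fold change of 0.86 (SE 0.05, adjusted p = 3.09e-11). Taf7l went from 20.4, 17.3, 15.7 and 14.8 CPM to 32.1, 30.2, 27.7 and 38.3 CPM. The piRNA pathway genes Ddx4 (0.38), Mael (0.36) and Asz1 (0.44) rose with overlapping groups.

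Promoters of germline genes often hold the E-box CACGTG, a palindrome that reads the same on both strands. In RefSeq promoters of GRCm38.p6 (250 bases before to 50 after a start site), 11 of 21 germline genes with an entry held it (52.4%), against 12.1% of the 10214 tested genes with an entry. Of the 11 with it, 9 rose, and of the 10 without it, 8 rose. Over all promoters, 22.2% of genes with the E-box rose and 16.4% fell, against 18.7% and 19.8% without it. The E-boxes of Ddx4, Mael and Taf7l are shown with their surroundings, in capitals, on the strand of the gene. The word begins 29 bases before the start site in Ddx4, 223 in Mael and 49 in Taf7l.
Ddx4 (chr13:112652323-112652350, minus strand): gcgtccgcccgCACGTGcagccgtttaa
Mael (chr1:166238951-166238978, minus strand): accaggcctacCACGTGacaatccccgc
Taf7l (chrX:134476523-134476550, minus strand): ccctcttatacCACGTGacagaactcgc

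DNA methylation genes and imprinted genes also changed. Of 17 genes of DNA methylation and its removal, 6 fell and 3 rose. Dnmt1, which copies methylation at replication, fell from 280 to 319 CPM down to 232 to 276 CPM (-0.23), with its partner Uhrf1 (-0.38). Dnmt3l, the cofactor of de novo methylation, rose from 111, 101, 82.0 and 123 CPM to 151, 154, 120 and 186 CPM (0.55, adjusted p = 4.72e-09). Dnmt3a rose by 0.31 and Zfp57, which protects imprints, by 0.17, while Dnmt3b had -0.02 (adjusted p = 0.768). Tet1 and Tet2, which oxidise methylated cytosine, fell by 0.27 and 0.20. Of 25 imprinted genes tested of 36 listed, 13 rose and 2 fell (median 0.15). Dlk1 (1.196, from 1.36 to 2.62 CPM to 3.24 to 4.80 CPM), Nnat (0.48), Sgce (0.42), Ndn (0.40) and Meg3 (0.31) rose, and Peg3 (-0.41) and Trappc9 (-0.24) fell. H19 and Igf2r did not pass, and Igf2 had at most 11 counts and was not tested.

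MHC class I genes rose more often than they fell, and interferon genes fell more often than they rose. Of 16 tested genes of antigen presentation, 8 rose and 1 fell (median 0.30), and of the 8 with at least 10 CPM, 4 rose. H2-K1 was at 32.2, 34.8, 39.0 and 36.7 CPM in control and at 70.2, 69.0, 73.5 and 78.4 CPM in RAM siRNA libraries (1.03, standard error 0.05, adjusted p = 2.07e-12). The heavy chain H2-D1 rose by 0.72 and B2m, their light chain, by 0.59, and Tapbp, which loads peptides, fell by 0.50. Heavy chain genes share much of their sequence, so their reads may be split between H2-K1 and H2-D1. Of 24 interferon and RNA sensing genes, 9 fell and 2 rose (median -0.08). Ifitm3, a membrane protein that blocks virus entry, fell from 134, 168, 191 and 134 CPM to 80.1, 103, 127 and 72.2 CPM (-0.73), Parp14 by 0.75 and Ifitm1 by 0.46. Ifit2 fell by 1.45, from at most 2.61 CPM. Eif2ak2, the kinase PKR, fell by 0.15, and Bst2 (0.30) and Trim25 (0.15) rose. Ifit1, Ifit3, Isg15 and Ifih1 had at most 11 counts in any library and were not tested.

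Lipid synthesis genes rose more often than they fell in both lists, with single genes moving apart within each. Of 29 genes of cholesterol synthesis and uptake, 14 rose and 3 fell (median 0.15, between 0.11 and 0.18 in the 4 pairs). Dhcr7 (0.54) and Tm7sf2 (0.52) rose, while Ebp, Pmvk and Ggps1 fell by 0.36, 0.32 and 0.30. Sqle rose by 0.15, and the early enzyme Hmgcs1 (-0.02, adjusted p = 0.702) did not pass.

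Of 34 genes of fatty acid and phospholipid synthesis, 12 rose and 8 fell (median 0.12). Scd2 was at 360, 410, 423 and 348 CPM in control and at 854, 875, 780 and 655 CPM in RAM siRNA libraries. The elongases diverged, since Elovl6, which extends saturated chains, fell from 359, 367, 343 and 289 CPM to 208, 203, 204 and 155 CPM (-0.82) and Elovl7 by 0.42, whereas Elovl4 rose by 0.42. The acyl-CoA ligases Acsl3 (0.47) and Acsl4 (-0.40) also moved apart. Acaca (0.14), Fads1 (0.24) and Fads2 (0.20) rose, and Fasn, fatty acid synthase, had 0.11 (adjusted p = 0.0522). Scd2 and Fads1 hold TGCTCAA and Elovl6 holds both words.

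Genes of transport across membranes rose more often than they fell. Of 231 solute carriers tested of 361 listed, 92 rose and 30 fell (median 0.10), with 58 rising without replicate 1. Slc39a1 was at 61.3, 63.8, 71.5 and 59.4 CPM in control and at 133, 124, 135 and 117 CPM in RAM siRNA libraries, the lactate exporter Slc16a3 rose by 0.76 and Slc41a3 by 0.68. After Slc35a3, the largest falls were in the sulfate carrier Slc26a2 (-0.57) and the mitochondrial carrier Slc25a44 (-0.50). Of 51 potassium, sodium and calcium channel genes, 23 rose and 3 fell (median 0.22), though only 13 had at least 10 CPM, of which 5 rose. Of 46 axon guidance, ephrin and protocadherin genes 17 rose and 8 fell (median 0.10, 5 falling without replicate 4), and of 45 lysosome and autophagy genes 14 rose and 6 fell (median 0.03, 3 falling without replicate 2). Rab GTPases, which direct vesicle traffic, went the other way. Of 44 tested, 17 fell and 3 rose (median -0.12), with 11 falling without replicate 1 and 10 without replicate 2.

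Ribosomal protein genes were called less often than all genes, while tRNA synthetase, proteasome and chaperonin genes fell more often than they rose. Of 82 cytosolic ribosomal protein genes, 6 fell (7.32%) and 1 rose (1.22%), below the shares of all genes, with a median of -0.04. Pair 4 stood apart, with a median of 0.08 against -0.08 to -0.05 in the others, and 27 fell without replicate 4 against 3 without replicate 1, 2 or 3. Translation initiation and elongation factors had 10 of 49 that fell and 4 that rose (3 falling without replicate 1 and 17 without replicate 4). Aminoacyl-tRNA synthetases had 9 of 23 that fell and 2 that rose (4 falling without replicate 1 and 5 without replicate 2). Of 37 proteasome subunits 16 fell and 3 rose (median -0.10), with 6 falling without replicate 1 and 9 without replicate 2. Of 30 chaperonin and heat shock genes 9 fell and 1 rose, and 17 fell without replicate 4. Ribosome biogenesis genes were even, with 8 of 58 falling and 9 rising, and 1, 2 and 5 falling without replicates 1, 2 and 3 and 5 and 4 rising without replicates 2 and 3.

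Of 13 protein genes of the mitochondrial genome 9 were tested, of which 5 rose and none fell (median 0.23), with 3 rising without replicate 1. None fell with DESeq2 or limma-voom or at an unadjusted p under 0.05 in edgeR (0 of 9). The share of counts from all genes of the mitochondrial genome was 5.95% to 6.67% in control and 6.34% to 7.11% in RAM siRNA libraries. The rRNA gene mt-Rnr2 alone gave 3.29% to 3.99% of counts, so this share is not that of the protein genes. Of 77 nuclear genes of mitochondrial ribosomal proteins, 23 fell and 6 rose (median -0.04), with 14 falling without replicate 1 and 15 without replicate 2. Of 80 nuclear subunits of oxidative phosphorylation, 17 fell (21.2%, near the share of all genes) and 5 rose (median -0.03), with 10 falling without replicate 1 or 2 and 3 rising without any of the 4 replicates. The medians of both lists were above 0 in pair 4 (0.04 and 0.06) and in polysomes (0.06 and 0.12).

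Most stress lists had more falls than rises. Of 29 p53 target genes, 9 fell and only Cdkn1a rose (median -0.12). Of the 23 without either word in the 3′ UTR 7 fell, and Cdkn1a was not among these 23. Phlda3 fell from 46.3 to 51.4 CPM down to 30.8 to 34.1 CPM (-0.60), Perp by 0.47, Trp53inp1 and Ccng1 by 0.44 each, and Trp53 and Mdm2 by 0.16 each. Of 37 genes of the ATF4 integrated stress response 14 fell and 3 rose (median -0.03; 9 falling without replicate 1), and of 22 genes of the ER unfolded protein response 4 fell and 5 rose (2 rising without replicate 1 or 2).

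Genes of chromatin and RNA turnover fell more often than they rose, and nuclear RNAs rose more often than they fell. Of 58 chromatin modifiers 18 fell and 4 rose (median -0.09; 11 falling without replicate 1). Of 37 genes of the INO80 and Paf1 complexes and of elongation 14 fell and 2 rose (median -0.04; 8 falling without replicate 1). Of 45 genes of mRNA decay 15 fell and 3 rose (median -0.07; 8 falling without replicate 1). Subunits of RNA polymerase, TFIID and Mediator were even, with 13 of 84 falling and 13 rising (8 falling without replicate 1). Splicing factors of the SR and hnRNP families were too, with 8 of 39 falling and 7 rising, 3 and 5 falling without replicates 1 and 2, and 3, 4, 1 and 11 rising without replicates 1 to 4. Of 348 Zfp genes 47 fell and 23 rose (25 falling without replicate 1, and 11, 13, 13 and 38 rising without replicates 1 to 4). Of 23 nuclear and structural noncoding RNAs, 13 rose and 1 fell (median 0.19), and of 101 tested snoRNA genes 26 rose (25.7%) and 1 fell (0.990%).

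The lists that remained had no clear direction. Of 17 genes of the formative and primed state 5 fell and 5 rose (3 falling without replicate 3 or 4, and 3 rising without replicate 1), of 32 Wnt targets 3 fell and 7 rose, and of 31 Nodal, TGF-beta and BMP targets 9 fell and 5 rose (2 rising without replicate 1). Of 31 glycolysis and hypoxia genes 8 fell and 6 rose (5 falling without replicate 2), and of 34 genes of polyamine, one-carbon and nucleotide synthesis 11 fell and 9 rose. Of 25 oxidative stress genes 7 fell and 5 rose (3 falling without replicate 1 and 3 rising without replicate 2), of 15 tubulin genes 5 fell and 4 rose, and of 16 genes of small RNA silencing 5 fell and 2 rose (3 falling without replicate 1 or 3).

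The level and the base composition of a transcript went with the direction of its change. In the 20% of tested genes with the lowest mean level (0.819 to 4.19 CPM), 6.00% fell and 18.0% rose, with a median log2 fold change of 0.12, whereas in the 20% with the highest 26.2% fell and 19.6% rose (median -0.02). Over 5 equal groups by transcript GC content the share that fell went from 21.8% in the lowest (up to 44.2% GC) to 14.1% in the highest (from 55.9% GC), and the share that rose from 13.7% to 25.3%. The part of either in the lists was not tested.

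Polysome libraries of the same extracts gave the same direction for most genes called in input. Of 4972 such genes tested in both, 4691 had the same sign in polysomes, 1617 were called there in the same direction and 2 in the other. Of 154 named genes that were called in input, 149 had the same sign in polysomes, 89 passed the threshold there in the same direction and 0 in the other (edgeR, with the replicate block). Over all genes measured in both, 4.99% fell and 9.68% rose in polysomes. Those counts, 629 and 1220, moved with every replicate left out, to 263 and 539 without replicate 1, 1800 and 2717 without replicate 2, 403 and 776 without replicate 3, and 303 and 598 without replicate 4. The germline list had a median of 0.39 in polysomes, with 12 of 22 members rising, and DNA replication genes a median of -0.16, with 5 of 47 falling. MHC class I genes had 0.39, matrix genes 0.38, LIF genes -0.12 and cytosolic ribosomal protein genes 0.08.

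**Figure D5:**
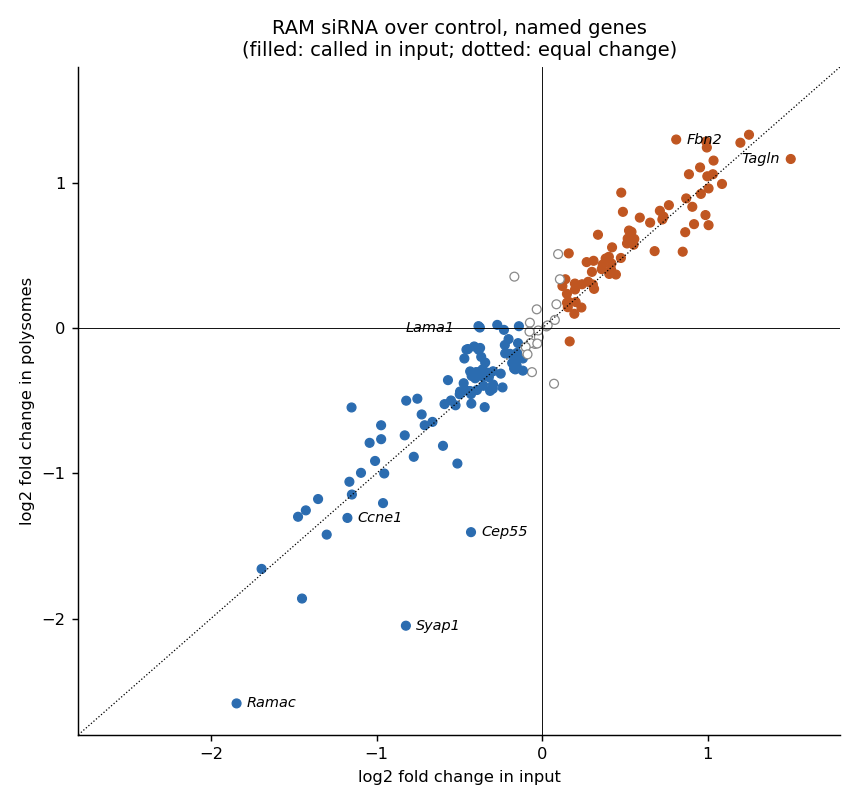
Log2 fold change of 174 named genes in input (horizontal axis) and in polysomes (vertical axis), RAM siRNA over control. Filled points were called in input (blue fell, orange rose), open points were not, and the dotted line marks equal change. Most points lie near the line, and Syap1 and Cep55 lie below it.

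The difference between the polysome and the input change passed the threshold in 2 of 12608 genes (0.0159%, and 633 at an unadjusted p under 0.05), both with a larger fall in polysomes. The fit did not pair input and polysome libraries of the same extract. Syap1, which encodes a synapse-associated protein, was at 30.7, 31.8, 24.6 and 27.3 CPM in control input and at 16.6, 18.0, 16.3 and 13.7 CPM in RAM siRNA input. In polysomes it was at 37.3, 34.2, 33.0 and 32.4 CPM in control and at 7.98, 5.94, 9.57 and 9.94 CPM in RAM siRNA libraries. The log2 fold change was -0.82 in input and -2.05 in polysomes, each from its own fit, and the difference estimated in the joint fit of both fractions was -1.28 (SE 0.16, adjusted p = 0.00229). Cep55 (chromosome 19, 38055011 to 38074423) was at 314, 333, 303 and 297 CPM in control input and at 226, 273, 249 and 185 CPM in RAM siRNA input. In polysomes it was at 211, 203, 148 and 153 CPM and at 71.3, 83.3, 59.6 and 55.7 CPM. Its difference in the joint fit was -1.03 (adjusted p = 0.00191). Neither passed without replicate 1 (adjusted p = 0.197 for both) or without replicate 3 (0.054 and 0.0724), and 184 genes passed without replicate 2. Lifr had -0.38 in input and 0.01 in polysomes, and Lama1 -0.38 and 0.00 (adjusted p of the difference 0.953 and 1).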

How the data were processed

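RNA from cytoplasmic extracts and polysome fractions 17 to 22 of 46C ESCs was sequenced after rRNA removal with a stranded kit. The authors deposited whole-number counts per gene. Per the labels' processing notes they used STAR 2.5.1b, HTSeq, bcl2fastq and edgeR with mm10. The annotation release and the strand and overlap settings of counting are not given in the sources used here, so genes that overlap or share sequence may exchange reads. Input libraries held 16697205 to 19140331 counts. Genes of low level had few counts at this depth, and the part of counting error in their changes was not tested separately.

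Genes that reached 1 CPM in 4 or more of the 8 input libraries were tested with edgeR 4.0.16 (TMM, quasi-likelihood, Benjamini-Hochberg adjusted p under 0.05) in R 4.3.3, with the replicate number as a block. Deviations of same-numbered libraries from their group means correlated (r of 0.411, 0.556, 0.719 and 0.781 over 9355 genes of at least 10 CPM). Other pairs had a mean of -0.195. Deviations within a group sum to 0, so that mean is pushed below 0 when same-numbered pairs correlate. The study's supplement describes 4 separate transfections. Polysomes were fitted in the same way, and the difference between fractions with the block within each fraction. That joint fit did not pair the input and polysome libraries of the same extract. No 2 libraries of a group were duplicates. On simulated counts of the input comparison over 13911 genes, 200 of 200 genes changed by 1 on the log2 scale were recovered and 10 unchanged genes were called. Without the block, 200 were recovered and 0 unchanged genes were called. The changed genes all had at least 10 CPM. Smaller changes, such as most of those described here, and changes in genes of lower level were not simulated.

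Alternatives were no block, DESeq2 1.42.0, limma-voom (limma 3.58.1), a likelihood ratio test, other scalings, filters and thresholds, each replicate left out and, chosen after the data were seen, leaving out carriers of either 3′ UTR word. Genes named were the targeted enzyme, the 15 largest falls and rises, and defining members and largest changes of at least 10 CPM of 22 of the 58 lists. Syap1 was named for its difference between fractions. The members and lists were chosen with earlier results of these data known. Some named genes are not reported here.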

Additional observations from a re-analysis of the deposited data

Results flagged for a closer look

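In 22 of 350 groups of 4 libraries, 1 library stood far from the other 3 (chance gives about 17.5, or 1 in 20 groups). Of these, 6 were control library 3 and 6 were RAM siRNA library 4. Among the genes that RAM siRNA library 4 set apart, Dcps (34.7 CPM), Ccna2 (199.9 CPM) and Trp53 (115.9 CPM) were highest there, and Fgf4 (260.2 CPM), Elovl6 (155.0 CPM) and Ccng1 (256.4 CPM) were lowest. Control library 3 was highest for Fam84b (26.7 CPM), Sox1 (8.73 CPM), Cldn6 (43.7 CPM), Meg3 (214.7 CPM) and Acsl4 (77.2 CPM) and lowest for Rngtt (31.1 CPM).

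Control library 2 was highest for Gna14 (20.8 CPM), Wwc1 (80.7 CPM) and Acsl3 (159.4 CPM). Control library 4 was highest for Zfp42 (443.1 CPM) and lowest for Lama1 (697.4 CPM) and Slc25a44 (35.4 CPM), and control library 1 was highest for Myh9 (178.4 CPM). RAM siRNA library 2 was lowest for Ramac (2.76 CPM), library 1 was lowest for E2f8 (9.15 CPM) and library 3 was highest for Elovl4 (22.2 CPM).

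The change of Syap1 and of Cep55 differed between polysomes and input, by -1.28 and -1.03 on the log2 scale in edgeR's test of the difference.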

How the results depend on the processing

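Of the 2581 falls and 2655 rises, edgeR without the replicate block called 792 and 916, DESeq2 1616 and 1567, and a null of 1.2-fold change in place of no change 467 and 671. At an adjusted p under 0.01, 1704 genes fell and 1803 rose. The other scalings, filters and tests stayed within 1.5 times of both counts. With a replicate left out, between 1813 and 2563 genes fell and between 1899 and 2630 rose. Ramac was at 27.4% to 28.3% of control with a replicate left out (p = 0.1 by exact permutation, two-sided, the lowest value for 3 libraries a group). In polysomes, 3 genes fell and 0 rose without the block, and with a replicate left out between 263 and 1800 fell and between 539 and 2717 rose. The difference between fractions passed in 0 genes without the block, and in 0 to 184 with a replicate left out. Of the 154 named genes that were called, none changed direction, 57 lost the call without the block, 14 with DESeq2, and between 5 and 14 with a replicate left out. The sign of the median changed in 5 of the 58 lists with upper-quartile scaling, in 5 with no filter on low counts (mesoderm, endoderm and trophoblast markers went from -0.22 to 0.17), in 1 with library size alone, and in 2 to 4 with a replicate left out.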
